A study of Mus musculus with 50 samples.

Results

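Of 49917 cells kept from sections of mouse liver, 98 (0.196%) were selected on their transcripts of Acta2, the actin of smooth muscle, and Tagln, transgelin, an actin-binding protein of the same cells. A cell was taken when both genes together gave at least 4 counts and at least 4% of its gene counts, and it had to hold at least 20 gene counts in all. These cells are called Acta2/Tagln cells below. The livers came from wildtype C57BL/6 mice (control) and from HIRA fl/fl mice (HIRA KO), and both groups had received AAV8-Tbg-Cre, a virus that expresses Cre recombinase from the hepatocyte promoter Tbg. HIRA is a histone chaperone. The mice were injected at 6 months and examined 12 months later, at 18 months of age, so that in HIRA KO the deletion was directed at hepatocytes and not at the Acta2/Tagln cells themselves. Sections of 5 µm were read by CosMx spatial molecular imaging, in which every decoded spot is 1 transcript of 1 of 1000 gene targets, and Hira was not among the targets, so the deletion could not be checked. The labels gave a genotype for each of 50 fields of view and named no mouse. Consecutive fields formed 6 tissue areas on 1 slide, 3 per genotype, and areas were the replicates, so p-values measure the spread between areas. The study's methods describe as many biological replicates per genotype as there are areas, but no source used here ties a field to a mouse. Control areas lay on one side of the slide and HIRA KO areas on the other, and genotype and side cannot be told apart. Along the slide the areas formed 3 rows, with both genotypes in every row.

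Smooth muscle cells wrap the walls of the portal vein, the hepatic artery and, more thinly, the central veins. Their contraction uses actin, myosin and tropomyosin filaments, whose genes are largely driven by serum response factor binding to CArG boxes. Myofibroblasts, which arise from hepatic stellate cells or portal fibroblasts in injured liver, also take up Acta2 and lay down fibrillar collagen, so Acta2 alone does not separate them from vessel wall.

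Promoters of Acta2 and of Myl9, the regulatory light chain of smooth muscle myosin, are printed because both genes lead the Acta2/Tagln cells and the CArG box is the sequence element their class of genes is known for. The lines give the 250 bases before each start site, 5′ to 3′ on the strand of the gene, from RefSeq on GRCm38.p6. Capitals mark matches to the 10-base CArG box on either strand, with at most 1 C or G allowed in its A/T core. Acta2 (chr19:34255374-34255623, minus strand) held 2 such matches and no exact one, and Myl9 (chr2:156775214-156775463, plus strand) held 2, of which 1 was exact.
Acta2: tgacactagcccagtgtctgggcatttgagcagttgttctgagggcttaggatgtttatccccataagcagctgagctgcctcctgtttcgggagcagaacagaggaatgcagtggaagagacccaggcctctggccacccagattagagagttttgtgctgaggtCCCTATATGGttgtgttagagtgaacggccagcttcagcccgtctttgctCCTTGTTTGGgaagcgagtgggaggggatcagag
Myl9: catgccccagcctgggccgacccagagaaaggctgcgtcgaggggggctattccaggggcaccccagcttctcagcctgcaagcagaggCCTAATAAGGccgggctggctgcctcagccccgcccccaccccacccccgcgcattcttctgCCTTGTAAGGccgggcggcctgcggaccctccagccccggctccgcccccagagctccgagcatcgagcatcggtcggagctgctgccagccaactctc
The 20 genes with the highest fold in these cells, among those higher in all 6 areas, were searched. Of these, 13 had a promoter in the table, and 4 of them (Acta2, Myl9, Crip1 and Gsn) held a match within the window from 250 bases before to 50 after the start site. Of all 32851 promoters in the table, 9.98% held such a match and 1.63% an exact box. A match is a stretch of letters, not evidence of a bound site.

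The 98 cells were spread unevenly. Control areas 1, 2 and 3 held 18, 10 and 25 Acta2/Tagln cells, and HIRA KO areas 1, 2 and 3 held 7, 32 and 6. Only 20 of 50 fields of view contained any, and the 3 richest fields contained 61 of them (62.2%). Both genes were seen in 89 cells, Acta2 without Tagln in 6 and Tagln without Acta2 in 3. The summed count of the pair had a median of 8 and a maximum of 30, or 7.91% of a cell's counts at the median and 25.6% at most. At the edge of the rule, 18 cells sat at exactly 4 counts and 16 between 4 and 5%, whereas 27 cells were left outside with 3 counts and at least 4%, and 36 with 4 counts or more but 3 to 4%. The median Acta2/Tagln cell held 98.5 gene counts, against 111 in all other cells, and the 98 cells together held 10776. Most Acta2 and Tagln transcripts lay elsewhere, since 9.25% of other cells held at least 1 Acta2 count and 9.62% at least 1 Tagln count. Of 6651 decoded Acta2 transcripts, 8.71% were in these cells, 83.9% in other cells and 7.35% outside any cell, and of 6429 Tagln transcripts the shares were 4.74%, 89.5% and 5.72%. Within the selected cells, 42.1% of Acta2 transcripts were nuclear, 42.7% cytoplasmic and 15.2% at the membrane, close to the 46.2%, 39.1% and 14.7% of the rest of the panel.

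Genes of the contractile apparatus led the profile of these cells. Because the rule used counts of the same cells, levels against other cells are a description with no test. They are CPM, gene counts scaled to one common total, summed over cells, and folds carry an offset of 100 CPM. The median fold of all 1000 genes was 0.816. Negative probes, which match no transcript, averaged 343 CPM per probe in Acta2/Tagln cells and 424 CPM in all others, so low levels lie close to background and folds of low genes are understated. The highest negative probe had 7 counts in Acta2/Tagln cells.

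The genes used for selection reached 53730 CPM against 798 for Acta2 and 28304 against 822 for Tagln. Acta2 counts were 75, 79 and 224 in the control areas and 32, 140 and 29 in the HIRA KO areas. Myl9 came next at 14848 against 475 CPM (26-fold), with 11, 14 and 54 counts in control and 18, 52 and 11 in HIRA KO. Myh11, the myosin heavy chain of differentiated smooth muscle, was at 8909 against 574 CPM (13.4-fold) and was seen in 51 of 98 cells, against 6.98% of other cells. Its counts were 8, 6 and 33 in control and 4, 43 and 2 in HIRA KO, so that most of them came from control area 3 and HIRA KO area 2. The tropomyosins Tpm2 (12.3-fold, 63 cells) and Tpm1 (10.5-fold, 72 cells), which line the actin filament, followed. Cald1, caldesmon, a brake on actomyosin, was 3.40-fold higher, and Vim, the intermediate filament of mesenchymal cells, 5.13-fold. Actg2, the enteric smooth muscle actin, was at 17 counts (2.23-fold, higher in 5 of 6 areas), while Myl4 and Myl7, myosin light chains of heart muscle, had 3 and 6 counts. Beside the selecting pair, 9 genes of the contractile list were measured, their median fold was 5.13, and 6 of them were higher in all 6 areas, as were 33 of the 1000 genes on the panel.

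Mural genes were raised less. Notch3, the receptor that keeps vascular smooth muscle in its differentiated state, was 4.11-fold higher on 22 counts, Rgs5, a regulator of G-protein signalling typical of pericytes, 3.52-fold on 45, Pdgfrb, the PDGF receptor of mural cells, 2.81-fold on 22, and Cspg4, the pericyte proteoglycan NG2, 2.27-fold on 14. Notch3 and Pdgfrb were higher in all 6 areas and Rgs5 and Cspg4 in 5. The folds are against all other cells together, and stellate cells, compared below, had a similar level of Rgs5. Among the weaker members, Itga8 (1.84-fold), Cav1 (1.79-fold), Itga1 (1.5-fold) and Jag1 (1.36-fold) had 11 to 20 counts each. Jag1 was higher in only 1 of 6 areas, with 8 of its 11 counts in HIRA KO area 2. Angpt1 was at 1.17-fold, Rgs2 at 0.741, Rgs1 at 0.707, Npr1 at 0.641, Ptgs1 at 0.619 and Ptgis at 0.555. These had 4 or 5 counts each, below the 7 of the highest negative probe. The median of the 14 mural genes was 1.43-fold. Of the PDGF ligands, Pdgfa had 20 counts (2.28-fold) and Pdgfb 7 (0.85-fold), and Pdgfra, the receptor of fibroblasts, was at 0.66-fold. The 19 genes measured for TGF-beta signalling had a median of 0.91-fold, and the integrins Itgb1 (2.14-fold) and Itgb5 (1.75-fold) were its highest.

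Outside the contractile list, Mgp, an inhibitor of calcification made in vessel walls, was 9.87-fold higher on 61 counts, 29 of them in control area 3 and 21 in HIRA KO area 2. Crip1, a small LIM protein, was 8.85-fold higher, and Gsn, the actin-severing gelsolin, 4.88-fold. Sparcl1 (5.57-fold), Gm13889 (5.49-fold), Hspb1 (4.47-fold), Lgals1 (3.78-fold), Serpinh1, the collagen chaperone (3.70-fold), Thbs1 (3.55-fold), Igfbp7 (3.21-fold) and S100a6 (3.03-fold) completed the 20 leading genes. A place among these 20 required a higher level in all 6 areas, which left out Rgs5 at 3.52-fold. Under the same condition the same 20 led with an offset of 20 CPM. Ranked instead by the share of a gene's counts that lay in the 98 cells, the first 5 genes were Acta2 (9.43%), Tagln (5.06%), Myl9 (4.61%), Myh11 (2.35%) and Tpm2 (2.03%).

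**Figure D1:**
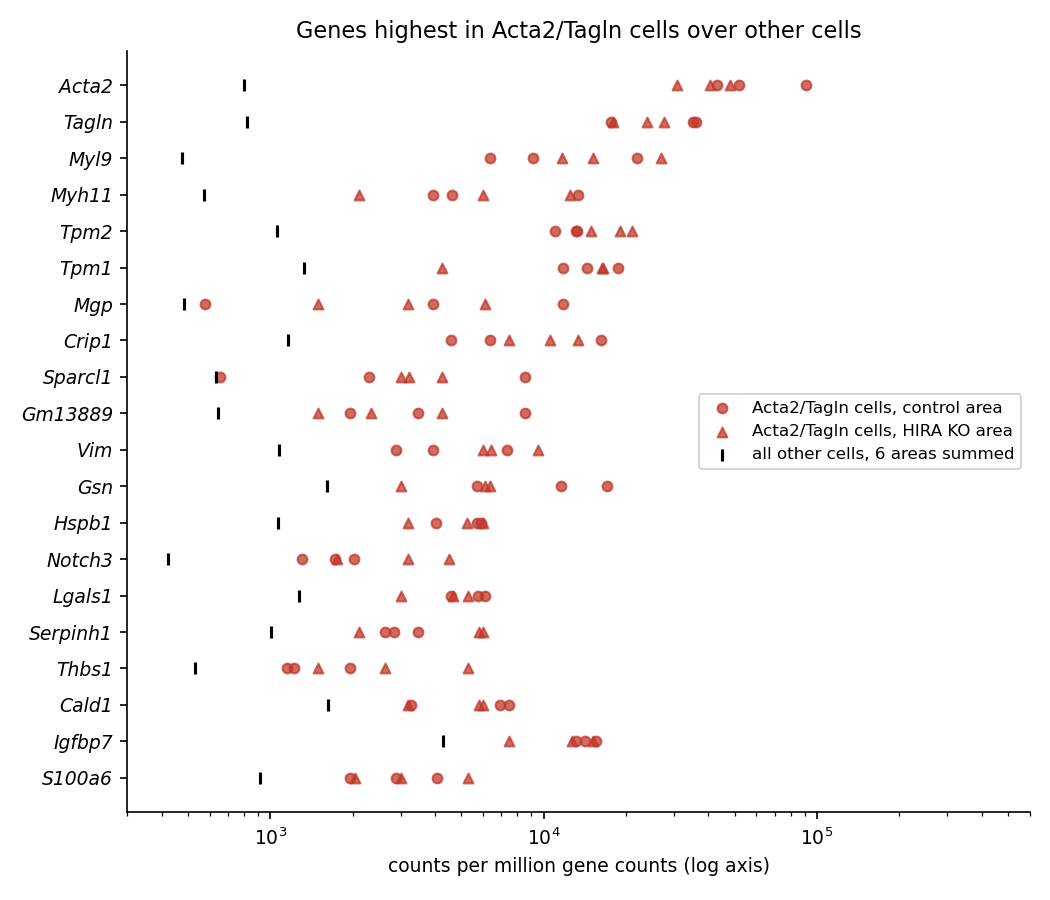
CPM on a log axis of the 20 genes with the highest fold among those higher in all 6 areas. A red circle marks the Acta2/Tagln cells of each control area, a red triangle those of each HIRA KO area and a black tick all other cells summed. Acta2 and Tagln, which selected the cells, lie far to the right of their ticks, Myl9, Tpm2 and Tpm1 follow, and circles and triangles are mixed for most genes.

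Markers of other liver cells were low or mixed. Hepatocyte genes took 1.12 to 5.13% of gene counts in the Acta2/Tagln cells of an area, against 4.79 to 9.78% in other cells, with a median fold of 0.40. The medians were 0.39-fold for Kupffer cell genes, 0.60-fold for sinusoidal endothelium and 0.65-fold for cholangiocytes. T and NK cell genes, at a median of 0.918-fold with Cd3e at 0, and the 2 haemoglobin targets, at 1.55-fold, lay above the median of all genes. The 7 stellate genes were mixed, with a median of 1.05-fold. Igfbp3 was at 2.72-fold, Cxcl12 at 1.35, Dcn at 1.13, Hgf at 1.05, Bmp5 at 0.83, Ngfr at 0.67 and Pdgfra at 0.66. Together they took 0.884 to 2.74% of counts against 0.890 to 1.48% in other cells, higher in 5 of 6 areas. Only 3 of the 98 cells also met a rule of the same form for stellate cells (Dcn and Cxcl12), and 5 met the rule for cells with MHC class II genes. The portal fibroblast list of 5 measured genes had a median of 2.86-fold. Gsn, Mgp (seen in 27 of 98 cells) and Dpt (2.86-fold) were raised, Lum was at 1.09-fold and Cd34 at 0.574-fold on 3 counts. The 14 measured matrix genes had a median of 0.827-fold, near that of all genes, and 2 were higher in all 6 areas. Mmp2 (0.856-fold), Fn1, Col5a3, Fap, Mmp14, Timp1, Col5a1 and Thbs2 (0.545-fold) were lower than in other cells. Bgn, a proteoglycan, was 2.60-fold higher on 89 counts and higher in all 6 areas. Among the fibrillar collagens, Col3a1 was 2.45-fold on 14 counts (higher in 5 of 6 areas). Col1a2 was 1.63-fold on 19 (3 of 6) and Col1a1 1.62-fold on 14 (5 of 6). Bgn was at 8259 CPM in Acta2/Tagln cells and 13408 CPM in cells of the stellate rule. In the same order, Myh11 was at 8909 against 516 CPM and Notch3 at 2042 against 365 CPM. Rgs5 (4176 against 3434 CPM) and Igfbp7 (14013 against 13462 CPM) were at similar levels in stellate-rule cells. High levels of Rgs5 and Igfbp7 were therefore not particular to Acta2/Tagln cells. Nor were those of Mgp (5661 CPM) and Gsn (8259 CPM). The 7 cells of a rule of the same form for portal fibroblasts had Mgp at 5566 CPM and Gsn at 24119 CPM. Myh11 and Notch3 were at 0 in those 7 cells, which give only a rough level. Whether single cells were smooth muscle or myofibroblasts was not tested.

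In 5 of 6 areas, Acta2/Tagln cells had others of their kind among their nearest cells, but the difference from other cells did not pass the threshold. Among the 20 nearest cells of an Acta2/Tagln cell, other Acta2/Tagln cells made up 4.72, 8.5 and 30.4% in the control areas and 4.29, 12.2 and 0% in the HIRA KO areas. Around all other cells the share averaged 0.171%. The areas ranged widely, and HIRA KO area 3, with 6 scattered cells, had no pair of neighbours. The difference was positive in 5 of 6 areas (mean 10 against 0.171%, exact sign-flip permutation test, p = 0.0625, where 6 areas allow no p below 0.031). Without control area 3 the difference was 5.79 percentage points. Linking cells at most 300 pixels (px) apart gave 45 groups, of which 29 were single cells and 2 held 5 or more. The larger, of 20 cells in control area 3, spanned 1059 px and was drawn out, with an SD of 280 px along its long axis and 79.9 px across it. The other, of 12 cells in HIRA KO area 2, spanned 646 px, with 217 and 51.3 px. Neighbouring members of these groups lay a median of 66.2 and 73.5 px apart. Each group lay within 1 field. The size of a pixel is not given in the sources used here.

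**Figure D2:**
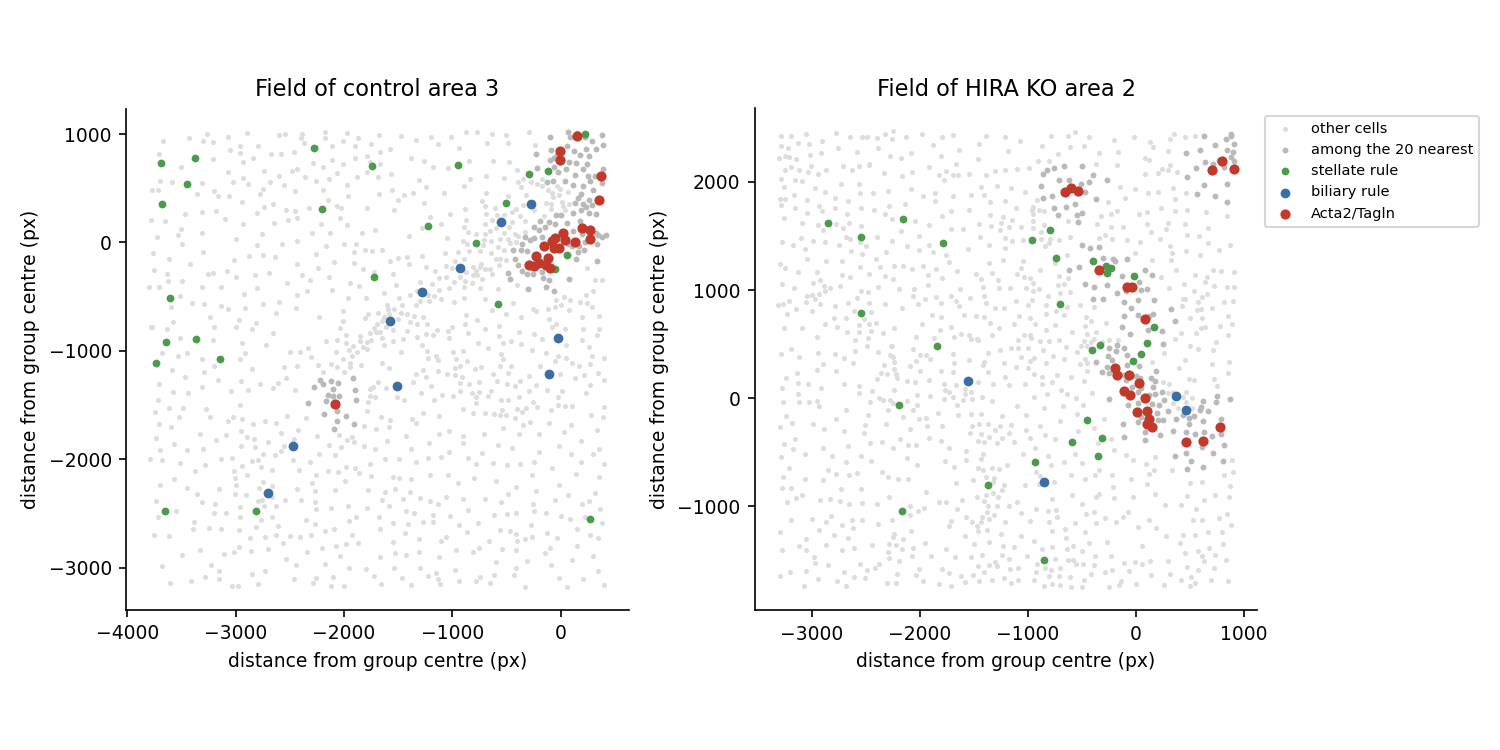
Positions in px of every cell in the fields that hold the largest groups of Acta2/Tagln cells (red), with cells of the biliary rule in blue, of the stellate rule in green, cells among the 20 nearest in dark grey and all others in light grey. The control field holds 24 Acta2/Tagln cells and 10 biliary cells, and the HIRA KO field 25 and 4. In neither field is a biliary cell among the 20 nearest of an Acta2/Tagln cell. The larger group of each field, of 20 and 12 cells, is drawn out along one direction, while other red cells lie apart from it.

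Contractile genes took a larger share of counts in the grouped cells than in the single ones, which is a description without a test, since the cells of large groups came from 1 field of each genotype. Contractile genes without Acta2, Tagln and Vim made up 8.80% (95% Wilson interval 7.81 to 9.90) of the other gene counts in the 32 cells of the 2 large groups, 6.74% (6.02 to 7.53) in the 37 cells of groups of 2 to 4 and 4.36% (3.67 to 5.17) in the 29 single cells. Intervals here and below cover counting error only. Myh11 ran in the same order at 1.74, 0.757 and 0.527%, Myl9 at 2.38, 1.70 and 0.738%, and Mgp at 1.21, 0.449 and 0.281%. Stellate genes ran the other way, at 1.03, 1.23 and 2.18%, as did fibrillar collagen at 0.213, 0.449 and 0.774% (6, 19 and 22 counts). Rgs5 was at 0.213% in the large groups, 0.567% in the small and 0.527% in single cells. Hepatocyte genes also rose towards the single cells, from 1.10 through 2.48 to 3.27%, and the rule genes fell from 11.4 through 7.05 to 6.60% of all counts. The sets also differed in genotype. Single cells numbered 8, 2 and 2 in control areas 1, 2 and 3 and 4, 7 and 6 in those of HIRA KO. The large groups held 20 control and 12 HIRA KO cells, so group size and genotype were not separated. The part of transcripts from adjoining cells in these differences was not tested.

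**Figure D3:**
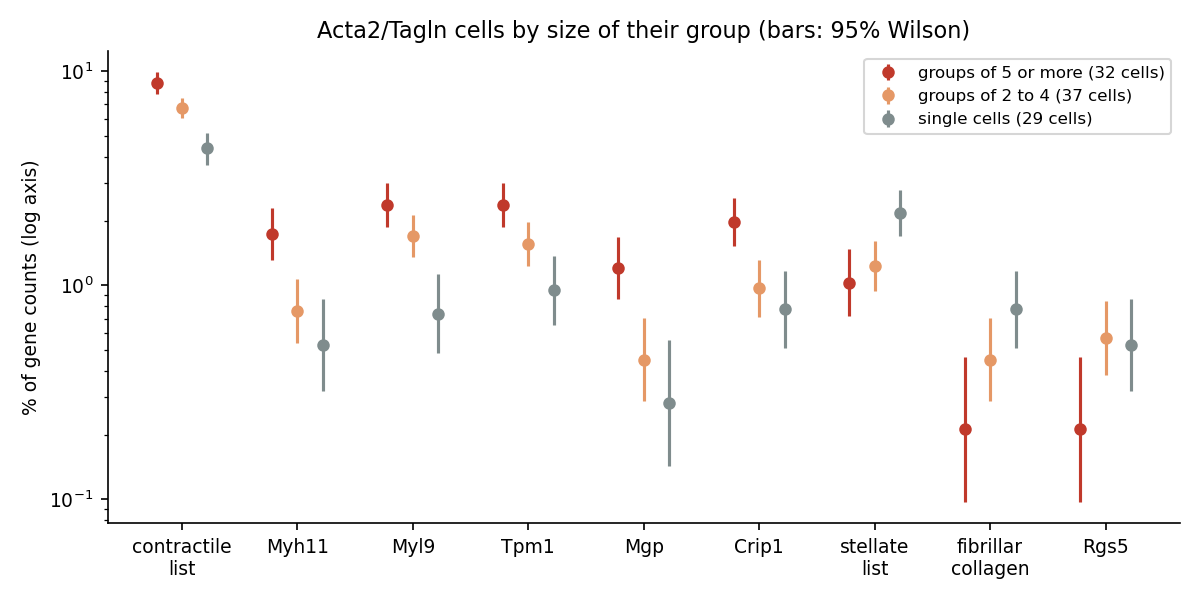
Share of gene counts other than Acta2 and Tagln, in percent on a log axis, for the contractile list, the stellate list, fibrillar collagen and single genes in Acta2/Tagln cells of large groups (32 cells), of groups of 2 to 4 (37 cells) and single (29 cells), with 95% Wilson intervals. The contractile list, Myh11, Myl9, Tpm1, Crip1 and Mgp are highest in the large groups, and the stellate list and fibrillar collagen in the single cells. Tpm2, which was highest in groups of 2 to 4, is not shown.

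In the cells around Acta2/Tagln cells, 2 of 9 cholangiocyte genes and 3 of 5 portal fibroblast genes were higher, and 2 of 6 Kupffer cell genes were lower. The 1017 other cells that were among the 20 nearest of any Acta2/Tagln cell were compared with the 48802 cells elsewhere, per area, with edgeR on summed counts and area as a block, a comparison added after the data had been seen. The median distance of these cells to the nearest Acta2/Tagln cell was 188 px, and they held a median of 90 counts against 112. At an adjusted p of 0.05, 29 of 996 genes differed (2.91%), of which 23 were higher (2.31%) and 6 lower (0.602%). Before adjustment, 135 passed 0.05. DESeq2 called 25 higher and 1 lower, and of the 6 lower genes it called Cd5l alone, with Cd38 at an adjusted p of 0.067 and no adjusted p for the other genes.

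Spp1, osteopontin, a product of bile duct cells, was at 3502, 1772 and 2058 CPM around Acta2/Tagln cells of the control areas and 2117, 1496 and 2122 CPM in HIRA KO, against 863, 498 and 1080 and 1083, 1034 and 588 CPM elsewhere. It was higher in all 6 areas, and no area around lay as low as any area elsewhere (log2 difference 1.46, SE 0.18, adjusted p = 6.13e-06). Clu, clusterin, the other duct-linked gene called of 9 in the cholangiocyte list, was 0.99 higher on the log2 scale. Mgp was at 1069, 1329 and 5547 CPM in control and 1361, 2003 and 424 CPM in HIRA KO, against 413 to 501 CPM elsewhere (log2 1.97, SE 0.26, edgeR adjusted p = 1.78e-05). In HIRA KO area 3 its level of 424 CPM hardly differed from the 413 CPM elsewhere. Gsn (1.73) and Dpt, dermatopontin (1.25), with Mgp, made 3 of 5 genes of the portal fibroblast list. Igfbp3 (1.29) and the chemokine Cxcl12 (0.68) were called of 7 stellate genes, Bgn (0.72) of 14 matrix genes, and Fabp4 (0.87), the fatty acid carrier of vessel endothelium, of 6 genes of large-vessel endothelium. Of the contractile list, 5 of 9 were called, namely Myl9 (1.77), Tpm2 (1.20), Myh11 (1.03), Tpm1 (0.97) and Vim (0.95). The log2 differences of Gas6 (0.93), Crip1 (1.21), Hspb1 (0.76), S100a6 (0.76), Gm13889 (0.76), Tm4sf1 (0.73), Sparcl1 (0.68), Anxa1 (0.64) and Plac9 (0.53) make up the rest of the higher genes.

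The lower genes were Cd5l, Marco, Kdr, Cxcl9, Ighd and Cd38. Cd5l, a scavenger protein of Kupffer cells, was at 516, 640 and 179 CPM around them in control and 454, 456 and 1637 CPM in HIRA KO, against 1301 to 2637 CPM elsewhere (log2 -1.38, SE 0.21, edgeR adjusted p = 0.00014). It was lower in 6 of 6 areas. Marco, another Kupffer receptor (-0.78), and Kdr, the VEGF receptor of sinusoidal endothelium (-0.71), were lower too, as were Cxcl9 (-1.0), Ighd of naive B cells (-0.93) and Cd38 (-0.67). Without control area 1 only Cd5l and Cxcl9 of these 6 were called. The median log2 difference was 1.25 for portal fibroblast genes, 0.41 for cholangiocyte genes, -0.44 for Kupffer and sinusoidal genes alike, -0.03 for hepatocyte genes and 0.00 over all genes tested.

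Contractile transcripts themselves tailed off with distance. Acta2 and Tagln made up 1.32% of gene counts in other cells within 100 px of an Acta2/Tagln cell, 0.600% at 100 to 200 px, 0.263% at 200 to 400 px and 0.153% beyond 1600 px. When the 567 cells within 200 px were left out, 8 genes were called among the 450 that remained, 7 higher and 1 lower. The log2 differences there were 1.69 for Spp1, 1.28 for Gsn, 1.15 for Clu, 1.12 for Mgp, 1.06 for Gas6, 0.78 for Dpt, 0.71 for Crip1 and -0.91 for Cd5l. Myl9 (0.84) and Myh11 (0.04) did not pass. The part that transcripts of adjoining cells play in the contractile differences was not tested.

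**Figure D4:**
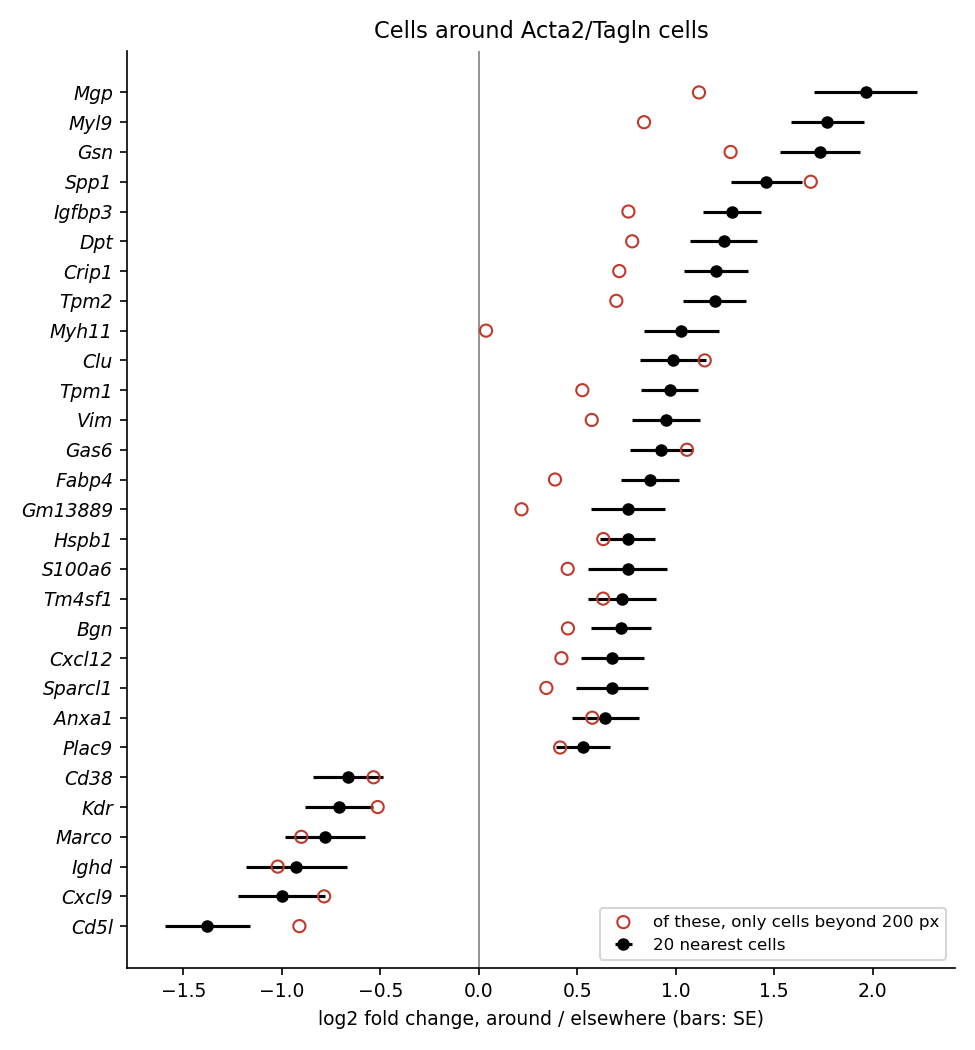
Log2 fold change of the 29 called genes in cells among the 20 nearest of Acta2/Tagln cells against cells elsewhere (black points, bars are SE), and the same for only those cells beyond 200 px (red rings). Beyond 200 px Spp1 and Clu lie at 1.69 and 1.15, Gsn moves from 1.73 to 1.28, Myh11 lies at 0.04, and Cd5l lies left of 0 in both.

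Neighbours were also classed with rules of the same form. Kupffer cells made up 1.33% of the neighbours of Acta2/Tagln cells against 3.28% of the neighbours of other cells, lower in all 6 areas (exact sign-flip test, p = 0.031, adjusted over 10 classes 0.104). T and NK cells were at 0 against 0.618% and sinusoidal endothelial cells at 0 against 0.102%, with the same p-values. Stellate cells were at 2.89 against 2.18% (exact p = 0.0625, adjusted 0.156) and MHC class II cells at 11.9 against 7.0% (adjusted 0.375). Biliary cells were at 0.443 against 0.253%, higher in 3 of 6 areas (exact sign-flip test, p = 0.406, adjusted 0.580). They were at 0% in control areas 2 and 3 and in HIRA KO area 2. No class passed the adjusted threshold. The nearest cell of the biliary rule (Spp1, Sox9 and Epcam) lay at a median of 961, 2588 and 516 px from Acta2/Tagln cells of the control areas and 1427, 534 and 1274 px in HIRA KO, against 2683, 2946 and 1684 px and 1529, 1408 and 1659 px from other cells. They were nearer in 6 of 6 areas, by a mean log2 ratio of -0.88 ± 0.73 (SD, n = 6, exact sign-flip test, p = 0.031, adjusted over 3 classes 0.0938). The nearest pericentral cell (Glul) was farther in 5 of 6 areas, at a log2 ratio of 0.71 (exact adjusted p = 0.0938).

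Acta2/Tagln cells were small. Their median outlines covered 8298.5, 11617 and 5470 square px in the control areas and 7461, 5675.5 and 10349 in HIRA KO, against 14980, 16630 and 12183 and 8704, 10317 and 11697 for other cells. In every area they were smaller than the rest, by 0.63 on the log2 scale (exact sign-flip test, p = 0.031, adjusted over 3 measures 0.0469). Nuclei were also smaller in 6 of 6 areas, by 0.42 (exact test, adjusted p = 0.0469). Since the 4% condition favours cells with few counts, the outlines were also set against other cells of the same area within 10% of the same gene counts, and the difference was again -0.63 ± 0.345 (SD, n = 6, exact p = 0.031). Against cells of the stellate rule the difference was 0.105 (exact p = 0.625). The aspect ratio, a fraction between 0 and 1 whose formula is not stated, averaged 0.775 against 0.832 (exact test, adjusted p = 0.125).

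Protein stains, which played no part in the selection, gave lower PanCK, the keratin stain of epithelium, in these cells. The medians, on the log2 scale of intensity, were 10.81, 10.86 and 11.21 in control and 10.38, 10.39 and 11.50 in HIRA KO, against 11.53, 11.38 and 11.73 and 11.20, 11.03 and 11.67 in other cells. PanCK was lower in each of the 6 areas, by 0.57 on average, and the membrane stain B2M was lower in 6 of 6 by 0.45. CD3 was 0.38 lower, and CD45, the leukocyte antigen, 0.32 higher in 5 of 6. None of the 5 stains passed the threshold after adjustment (exact sign-flip tests, p = 0.031 for PanCK, adjusted 0.0781). Against cells of the stellate rule, PanCK (-0.45), B2M (-0.81) and CD45 (-0.28) were lower in all 6 areas (exact p = 0.031 each, adjusted 0.0521).

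Acta2/Tagln cells were not more or less frequent in HIRA KO beyond the spread of areas. They made up 0.220, 0.146 and 0.354% of cells in the control areas (mean 0.240 ± 0.105, SD, n = 3) and 0.0688, 0.315 and 0.0798% in HIRA KO (0.155 ± 0.139). The groups overlapped, and the difference of -0.0856 percentage points had p = 0.5 (exact permutation test, whose smallest p with 3 against 3 is 0.1). Within slide rows it was -0.151, 0.169 and -0.274 percentage points. Leaving out 1 area moved it from -0.166 (without HIRA KO area 2) to -0.0286 (without control area 3). The 3 richest fields gave 61 of the 98 cells, and the vessels that each field crossed were not counted.

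Contractile genes other than Acta2, Tagln and Vim made up 5.13, 4.50 and 8.47% of the other gene counts of Acta2/Tagln cells in control and 8.71, 7.28 and 4.67% in HIRA KO. The genotypes overlapped (6.03 ± 2.14 against 6.89 ± 2.05%, n = 3 areas each with SD, p = 0.7 by an exact permutation test). In other cells the share was 0.653 and 0.632%, and in stellate-rule cells 0.743 and 0.728%. Gene by gene, edgeR called 0 of the 15 genes that passed its filter (0%), and 0 of 15 passed an unadjusted p of 0.05. DESeq2 also called 0. The lowest p was that of Gsn, at 11521, 17005 and 5686 CPM in control and 2994, 6112 and 6349 in HIRA KO (log2 -1.25, SE 0.74, adjusted p = 0.945). Tpm1 was at a log2 difference of -0.54 (-1.39 without HIRA KO area 2, -0.16 without HIRA KO area 3 and -0.23 without control area 3), Bgn at -0.14 and Ttr, the thyroid hormone carrier made by hepatocytes, at 0.44, all with an edgeR adjusted p of 0.945. Non-overlapping CPM occurred in 1 of these 15 genes (6.67%), Tpm2, at 13249, 13080 and 10967 CPM in control and 20958, 14843 and 19048 in HIRA KO, where the fit gave a log2 difference of 0.15. That gene was named after its values had been seen. A test of whether the genotype difference was unlike that in other cells called 0 of 996 genes (edgeR interaction, 0%), and 31 passed an unadjusted p of 0.05, or 13 with DESeq2. Most of these genes entered through the deeper sums of the other cells, since 15 beside the selecting pair passed the filter in Acta2/Tagln cells alone, and for most of them this test says little.

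The fibrillar collagen share did not overlap between the genotypes. Col1a1, Col1a2 and Col3a1 made up 0.312% (5 of 1600 counts, 95% Wilson interval 0.134 to 0.729), 0.281% (4 of 1423, 0.109 to 0.721) and 0.186% (4 of 2149, 0.0724 to 0.478) of the other counts in the control areas. In HIRA KO they made up 0.645% (4 of 620, 0.251 to 1.65), 0.687% (22 of 3201, 0.454 to 1.04) and 0.890% (8 of 899, 0.452 to 1.75). All 3 HIRA KO areas were higher than all 3 control areas (0.741 ± 0.131 against 0.260 ± 0.0658%, n = 3 areas each with SD, p = 0.1 by an exact permutation test, the smallest it can give), although the intervals of single areas overlapped. Each value rests on 4 to 22 collagen counts, and a negative probe averaged 343 CPM in these cells. Grouping differed too, since all 6 cells of HIRA KO area 3 were single and 20 of 25 in control area 3 formed 1 group. The part of grouping in the collagen difference was not tested. Stellate-rule cells were at 0.388, 0.318 and 0.382% in control and 0.777, 0.758 and 0.712% in HIRA KO, and all other cells at 0.202, 0.168 and 0.192% against 0.269, 0.278 and 0.218%. In both of these sets the genotypes did not overlap. The log2 ratio of Acta2/Tagln cells to stellate-rule cells rose by 0.48 between genotypes (exact p = 0.2) and that to all other cells by 1.09 (exact p = 0.1), and neither passed the threshold. By gene, Col1a2 was at 0.0598 against 0.307% and Col3a1 at 0.0519 against 0.265%, without overlap, and Col1a1 at 0.148 against 0.170%, with overlap. These shares rest on very few counts. Col1a2 had 1, 1 and 1 in control and 2, 12 and 2 in HIRA KO, and Col3a1 had 1, 0 and 2 against 1, 6 and 4. The 3 genes did not pass the filter of the gene test, where 1 of 15 genes (6.67%) did not overlap.

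**Figure D5:**
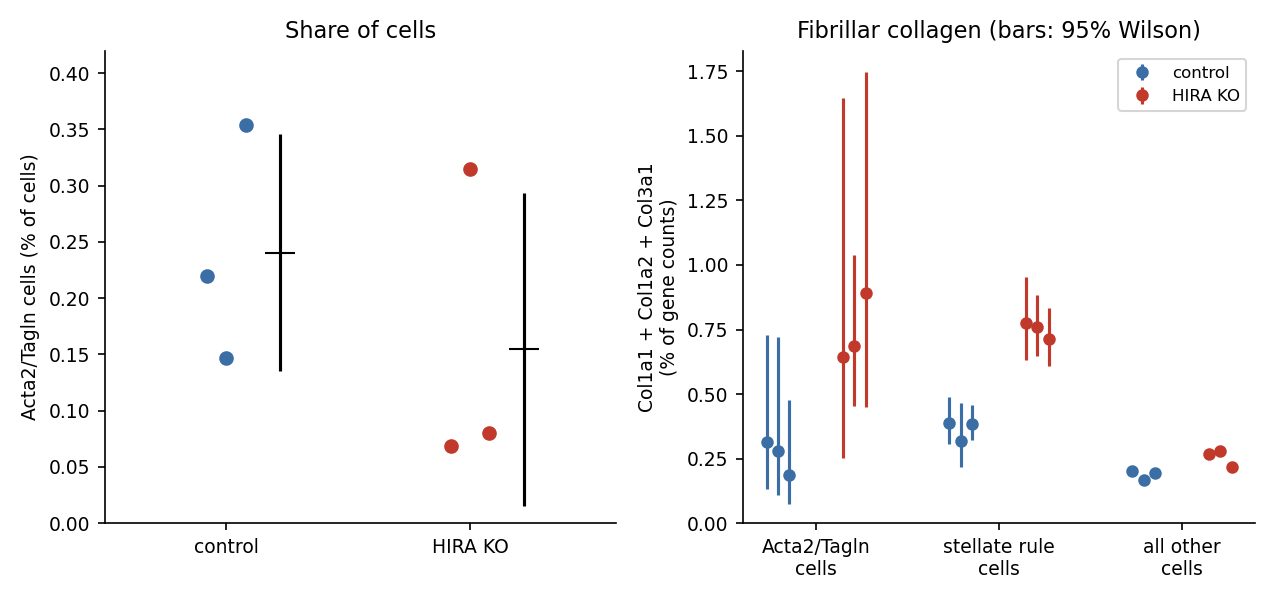
Left, Acta2/Tagln cells as percent of cells in each area, with mean and SD beside the points. Right, fibrillar collagen as percent of gene counts in Acta2/Tagln, stellate-rule and all other cells of each area, with 95% Wilson intervals. The shares overlap between genotypes, while collagen is higher in all 3 HIRA KO areas for each set of cells.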

How the data were processed

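Control and HIRA KO liver sections on 1 slide were imaged in 50 fields of view. The authors deposited unnormalized counts for 1000 targets in each outlined cell, with no cells removed, and, per the file headers, the mean stain intensity, the aspect ratio as a fraction, cell area and position. The methods name Seurat, SCTransform and Harmony for later steps, whose output is not used here, and versions of the decoding and segmentation software are not given in the sources used here. Of 52132 cells, 2215 below 20 gene counts were left out. Negative probes and transcripts outside cells entered no test. Counts were summed per area (1529 to 3436 in Acta2/Tagln cells of 4 areas, 668 and 945 in the others) and fitted with edgeR 4.0.16 (quasi-likelihood, TMM computed over the whole panel, filterByExpr, Benjamini-Hochberg 0.05) in R 4.3.3, with DESeq2 1.42.0 as an alternative. Acta2 and Tagln were left out of the calls. Single values were compared with exact permutation tests, two-sided, written in Python 3.11.15 with numpy 2.4.6. Wilson intervals came from scipy 1.17.1. Fits were tested on simulated data. Named genes are the 20 with the highest fold over other cells among those higher in all 6 areas, members of the contractile and mural lists, and the lowest p of a list. The members and lists were chosen with earlier results of these data known.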

Additional observations from a re-analysis of the deposited data

How the results depend on the processing

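The thresholds of the selection, the tool, the scaling, the filter and each area were varied, and the comparison of surrounding cells and its alternatives were chosen after the data had been seen. With 3 counts and 3% (181 cells), the contractile difference turned to -0.451 percentage points, grouping rose to 11 points (exact p = 0.031) and 4 of 5 stains passed. With 6 counts and 6% (46 cells, none in HIRA KO area 3), the cell area difference was -0.813 (exact adjusted p = 0.188) and the biliary share of neighbours -0.0990 points. Within slide row 2 the share difference was 0.169 points, and within row 3 the contractile difference -3.80. Leaving out 1 area gave -0.725 to -0.530 for cell area, where 5 areas allow no p below the threshold, -0.0551 to 2.08 for the contractile difference (negative without HIRA KO area 1), and 19 to 28 called genes around, with 19 without control area 1, of which 2 lower, as without control area 2. With 40 nearest cells 45 genes were called, and 8 without cells within 200 px. Bgn between genotypes turned to 0.233 with 3 counts and 3%, 0.311 with library size only, 0.334 with DESeq2, 0.271 without control area 3 and 0.0809 without HIRA KO area 3 (range -0.456 to 0.271), and Ttr to -0.196 without control area 3 (range -0.196 to 1.57). The causes were not tested. The slide row as a block called 0 genes between genotypes, as did every other setting. The labels give no replicate numbers that pair the genotypes, and between genotypes the slide row was the only block used. The 98 cells hold 10776 counts in 3 areas per genotype, and the limits set by depth and by the number of areas were not separated.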
